A study of Mus musculus and Homo sapiens with 65 samples.

Results

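A set of 10 genes that act late in messenger RNA decay was followed through late 2-cell mouse embryos: the AU-rich element binding proteins Zfp36, Zfp36l1 and Zfp36l2, the decapping factors Dcp1a, Dcp1b, Dcp2 and Edc4, the exonuclease Xrn1, and the m6A readers Ythdf2 and Ythdf3. They were chosen by name for their place in the pathway, with earlier results of these data known. All 10 were found among the 32287 genes of each expression table. The series holds 65 samples of mouse oocytes and early embryos and of NCCIT and E14 cells. They cover histone methylation and acetylation, DNA methylation and gene expression. The 9 RNA-seq tables of 2-cell embryos in the series are used here. Levels are given in FPKM, fragments scaled to transcript length and to the library's total, so a level is relative to the rest of its own library.

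The 9 libraries form 4 groups. Wild type has 3 libraries of untreated embryos. The alpha-amanitin group has 2 libraries of embryos exposed to this inhibitor of RNA polymerase II, with no dose or route stated in the labels. The mismatch control group has 2 libraries of embryos injected as zygotes with fluorescein-tagged morpholinos that carry 5 changed bases, and the Kdm5a+b group has 2 libraries of embryos injected with the matching morpholinos against Kdm5a and Kdm5b, which encode histone H3 lysine 4 demethylases. All embryos were grown in G1 plus medium to the late 2-cell stage. The labels of these samples state no strain, donor age or number of embryos per library.

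A messenger RNA is usually lost in steps: its poly(A) tail is shortened, its cap is removed, and the body is digested from the 5′ end. Zfp36 family proteins bind AU-rich stretches of the 3′ untranslated region and recruit the deadenylases, while Ythdf proteins do so on transcripts that carry N6-methyladenosine. Dcp2 is the enzyme that cleaves the cap, Dcp1 proteins activate it, Edc4 is a scaffold that holds the complex together, and Xrn1 digests the uncapped RNA. In the mouse this machinery is known for clearing stored maternal transcripts while the embryo begins its own transcription.

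Members of the Zfp36 family are known to bind AU-rich elements in their own messages too. In the 3′ untranslated regions of the GENCODE M21 transcripts (build GRCm38, the same as mm10), the family's preferred nonamer TTATTTATT was found, on the sense strand, in Zfp36, Zfp36l1 and Zfp36l2, with 1 match each, and in none of the other 7 genes. It was present in 6.98% of 21037 genes, and its shorter core ATTTA, which it contains, in 61.8%. These shares are not matched for length, and the median untranslated region of those genes had 801 bases. The 3 matches are shown because the 3 AU-rich binding genes hold this sequence and the decapping and m6A genes of the group do not. The capitals mark the nonamer, with 10 bases of the message on each side.
Zfp36: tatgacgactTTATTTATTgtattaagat
Zfp36l1: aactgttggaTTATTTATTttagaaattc
Zfp36l2: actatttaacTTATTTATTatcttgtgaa
In Zfp36 the nonamer lies at chr7:28376961-28376969 on the minus strand, at base 589 of a 3′ untranslated region of 774 bases. In Zfp36l1 it lies at chr12:80108177-80108185, also on the minus strand, at base 1404 of 1835. For Zfp36l2 the match is at chr17:84184924-84184932, again on the minus strand, at base 821 of 1822. The core ATTTA was found in the 3′ untranslated region of each of the 10 genes, with 1 match in Edc4 and in Xrn1 and 18 in Dcp2, whose untranslated region of 7240 bases was the longest of the 10. A match is a description of the letters and does not show that the site is bound.

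Between 10611 and 11228 genes reached 1 FPKM in the 7 libraries without alpha-amanitin, against 7977 and 7935 with it. Read counts are not part of these tables, so depth in reads is unknown; the deposited bounds of an FPKM spanned a median, to either side, of 18.7% to 19.4% in wild type, 21.5% and 24.4% with alpha-amanitin, and 11.9% to 14.8% in injected embryos. The label was checked against 8 oocyte and embryo markers, which summed to 353 to 456 FPKM in wild-type embryos, 579 and 649 FPKM after alpha-amanitin and 418 to 462 FPKM in injected embryos. Among them Bmp15 lay between 154 and 487 FPKM in all 9 libraries. Zfp352, a gene of 2-cell transcription, lay between 79.3 and 152 FPKM without alpha-amanitin and at 1.77 and 3.05 FPKM with it. Among 11 cumulus and granulosa cell markers, Inha and Foxl2 were listed at 0 in every library. The summed level was 15.8 to 26.1 FPKM in wild-type embryos, 4.21 and 2.19 FPKM after alpha-amanitin and 15.8 to 24.6 FPKM in injected embryos. Most of it was Nr5a2, which the early embryo expresses itself. Tnfaip6, another of these markers, held 3.42, 1.68 and 1.67 FPKM across wild-type embryos. Its alpha-amanitin values were 0 and 0.130 FPKM, and injected embryos ranged from 0.306 to 3.04 FPKM. Cyp19a1 lay between 0.570 and 1.00 FPKM in untreated embryos. After alpha-amanitin Cyp19a1 stood at 0.361 and 0.0748 FPKM, and in injected embryos at 0.0647 to 0.576 FPKM. Whether such cells contributed to the results was not tested. Of 6 blood markers, Hbb-bs and Hbb-bt were listed at 0 in every library. Hba-a1 reached 4.62 FPKM in wild-type replicate 1 and Hba-a2 5.72 FPKM in Kdm5a+b replicate 2. Prm1, of 5 sperm markers, was listed at 0 in every library. Tnp1 had 5.44 FPKM in wild-type replicate 3, and Odf1 4.21 FPKM in wild-type replicate 2 and 3.31 FPKM in alpha-amanitin replicate 2. The blood list summed to at most 7.87 FPKM and the sperm list to at most 5.96 FPKM in any library. The 5 oviduct markers summed to 20.5 to 62.3 FPKM in wild-type embryos, against 1.29 and 3.14 FPKM after alpha-amanitin. In injected embryos they summed to 35.4 to 43.9 FPKM. Most of the sum was the epithelial gene Epcam in wild-type and injected embryos. The part of these markers in the results was not tested. The morpholino targets stood at 12.8 and 9.44 FPKM (Kdm5a) and 55.3 and 39.6 FPKM (Kdm5b) in mismatch controls, and at 19.5 and 15.3 FPKM and 38.1 and 27.6 FPKM with the Kdm5a+b morpholinos; a morpholino can block translation while the message stays, so the label is not checked by these levels.

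With alpha-amanitin, Zfp36, Zfp36l2 and Ythdf2 fell and Dcp1b rose, and the other 6 genes did not pass the test. The largest fall was that of Zfp36, from 14.8 ± 3.17 (SD, n = 3) to 0.700 ± 0.391 FPKM (SD, n = 2). Dcp1b went from 0.146 ± 0.239 to 5.49 ± 1.75 FPKM. The catalytic subunit Dcp2 averaged 21.6 FPKM in wild type, against 26.3 FPKM with alpha-amanitin, and its activator Dcp1a 46.4 and 61.1 FPKM, neither past the test. In whole-embryo RNA, fewer cells with a transcript and less of it per cell cannot be told apart.

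A gene was called at an adjusted p under 0.05 in limma on log2(FPKM + 1), with Benjamini-Hochberg adjustment over 13137 genes that had 1 FPKM or more in at least 2 libraries. All 10 genes passed that filter, Dcp1b through its 2 alpha-amanitin libraries alone, so that for Dcp1b a difference was built into being tested. Of the 10, 1 was higher against a background of 4.31% of all genes tested, and 3 were lower against a background of 25.1%. The median difference of the 10 was -0.29 and that of all genes tested was -0.56. Quantile normalization gives every library the same distribution of values, so it removes such a table-wide shift by construction (median of all genes 0.04). The libraries of the 2 groups did not overlap for 2 higher genes, Dcp1b and Ythdf3 (background 13.4%), and for 4 lower genes, Zfp36, Zfp36l2, Xrn1 and Ythdf2 (background 41.1%). The shares of lower genes are therefore near those of the whole table. The smallest two-sided p of an exact permutation test with 3 libraries against 2 is 0.2, so the calls rest on the model.

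**Figure D1:**
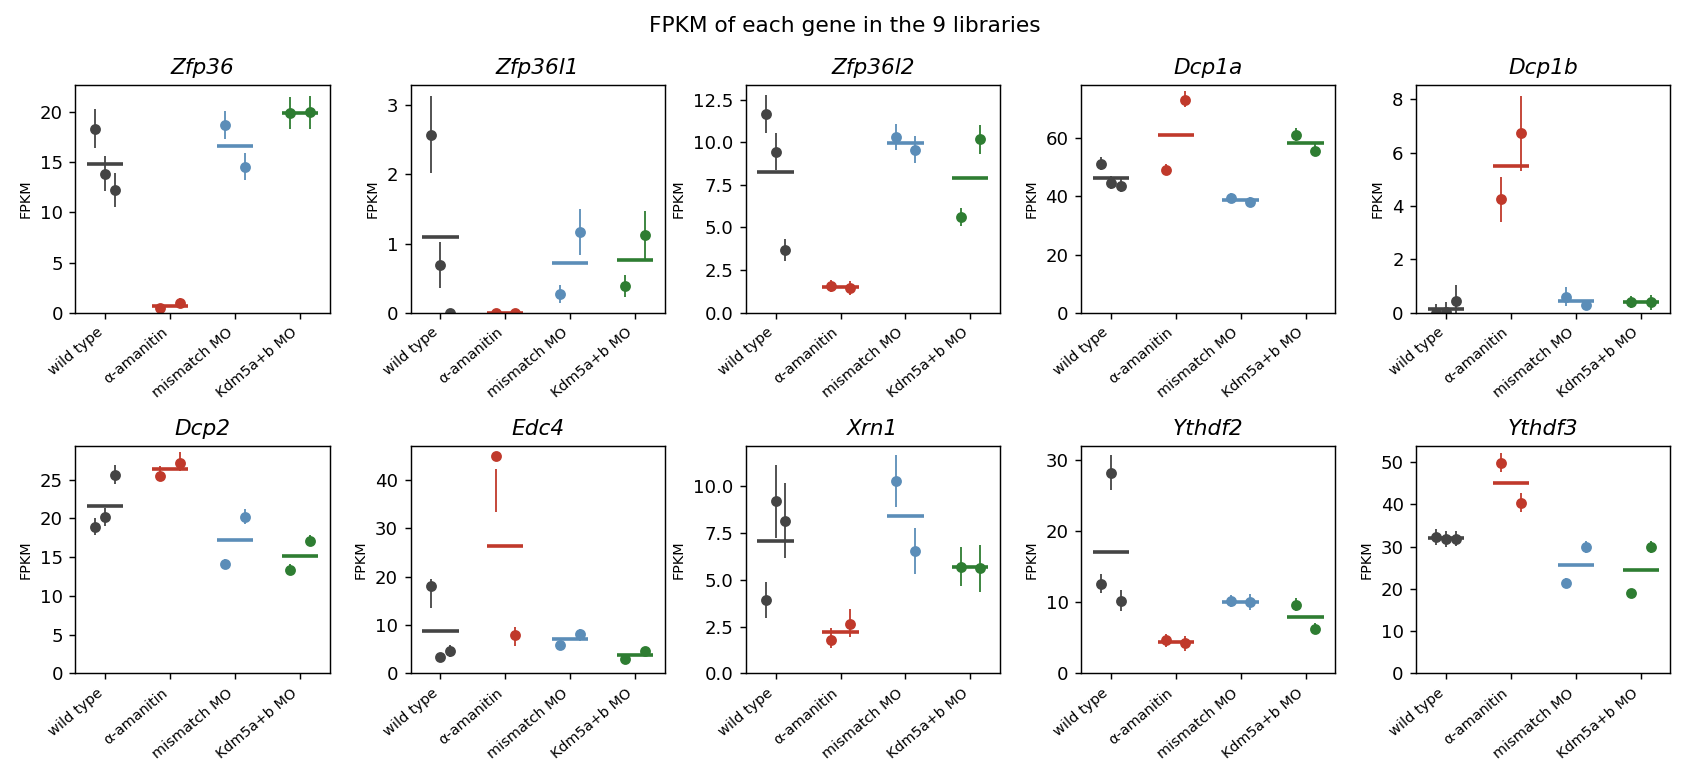
FPKM of each of the 10 genes (vertical axis, from 0) in the 4 groups. Points are libraries, thin lines their deposited lower and upper bounds, and thick lines group means; the alpha-amanitin libraries of Zfp36 (0.424 and 0.977 FPKM) lie far below all others, and those of Dcp1b (4.25 and 6.72 FPKM) far above.

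Zfp36 (ENSMUSG00000044786, chr7:28376784-28379255), also called tristetraprolin, is the founding member of its family and a short-lived, inducible inhibitor of cytokine messages. Its level was 18.3, 13.8 and 12.2 FPKM in wild-type embryos, 0.424 and 0.977 FPKM after alpha-amanitin, 18.7 and 14.5 FPKM in mismatch controls, and 19.9 and 20.0 FPKM with the Kdm5a+b morpholinos. The 2 alpha-amanitin libraries were lower than all 7 others by a wide margin, and the wild-type and mismatch libraries overlapped. On the log2(FPKM + 1) scale Zfp36 fell by 3.22 with alpha-amanitin (SE 0.364, limma adjusted p = 9.40e-05), a ratio of means of 21.1 between wild type and alpha-amanitin. That difference lay at the 6.07th percentile of all genes tested.

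Zfp36l2 (ENSMUSG00000045817, chr17:84183931-84187947) is the family member best known from early development, since mouse embryos whose mothers lack the full-length protein stop dividing after the first cleavage. Wild-type libraries had 11.7, 9.44 and 3.67 FPKM, alpha-amanitin libraries 1.57 and 1.46 FPKM, mismatch controls 10.3 and 9.57 FPKM, and Kdm5a+b libraries 5.60 and 10.2 FPKM. Both alpha-amanitin values were below every other library, but wild-type replicate 3 was the lowest library without the inhibitor. The fall was 1.76 on the log2 scale (SE 0.498, limma adjusted p = 0.0224). The call did not hold when wild-type replicate 1 or 2 was left out (limma adjusted p = 0.0641 and 0.0583) or alpha-amanitin replicate 1 or 2 (0.0749 and 0.0885), nor under quantile normalization, where the difference was -0.75 (adjusted p = 0.288).

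Zfp36l1 (ENSMUSG00000021127, chr12:80107760-80113013), which in other tissues restrains growth factor and cell cycle messages, was scarce throughout. It was found at 2.57 and 0.690 FPKM in wild-type replicates 1 and 2 and listed at 0 in replicate 3. Both alpha-amanitin libraries listed it at 0, mismatch controls had 0.267 and 1.17 FPKM, and Kdm5a+b libraries 0.391 and 1.12 FPKM. Since 1 wild-type library was also listed at 0, the groups overlapped, and no fold is given against a group listed at 0. The log2 difference with alpha-amanitin was -0.86 (SE 0.564, limma adjusted p = 0.278, 95% interval -2.11 to 0.38).

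Summed over the 3 paralogues, the family stood at 24.1 ± 8.34 FPKM (SD, n = 3) in wild type, against 2.22 ± 0.310 FPKM (SD, n = 2) with alpha-amanitin, and at 27.3 ± 2.83 and 28.6 ± 3.79 FPKM (SD, n = 2 each) in the mismatch and Kdm5a+b groups. Zfp36 made up 56.3% to 76.9% of this sum in wild type but 21.2% and 40.1% with alpha-amanitin, where Zfp36l2 held the rest. In injected embryos Zfp36 held 57.5% to 76.9%, overlapping the wild-type range. The log2 ratio of Zfp36l1 over Zfp36l2, taken within each library with 1 FPKM added to both, was -2.23 ± 0.402 in wild type and -1.33 ± 0.0465 with alpha-amanitin. That difference of 0.89 (exact permutation p = 0.2, the smallest this design allows) turned to -0.36 with 0.1 FPKM added instead, so the ratio of these low genes has no stable direction.

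**Figure D2:**
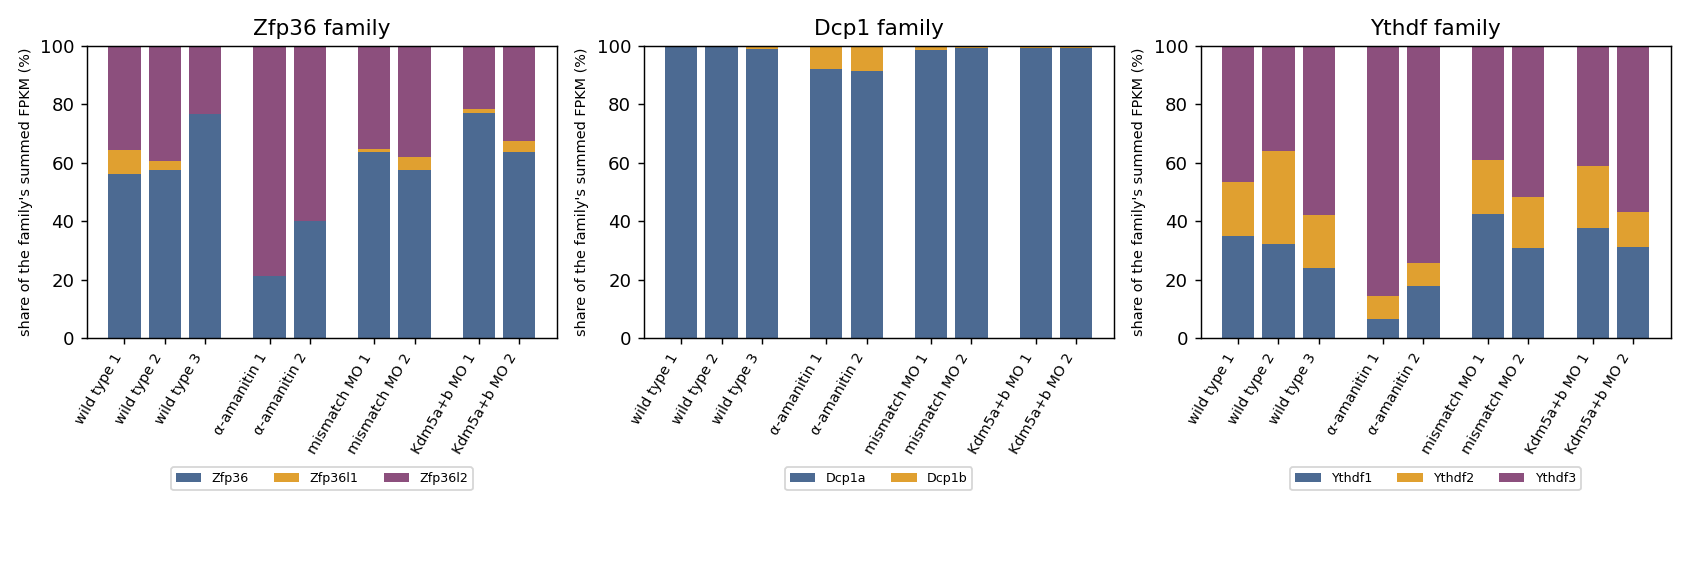
Share of each paralogue in the summed FPKM of its family (vertical axis, percent), for the Zfp36, Dcp1 and Ythdf families; each bar is a library. With alpha-amanitin Zfp36 shrank to 21.2% and 40.1% of its family, Dcp1b reached 7.98% and 8.42%, and Ythdf3 reached 85.5% and 74.2%.

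Among the decapping genes, Dcp1a (ENSMUSG00000021962, chr14:30479565-30527056) was the most abundant of all 10, and its wild-type mean exceeded 91.3% of the 11513 genes that averaged 1 FPKM or more. It stood at 51.1, 44.6 and 43.6 FPKM in wild-type embryos, 49.1 and 73.1 FPKM after alpha-amanitin, 39.6 and 38.1 FPKM in mismatch controls, and 61.0 and 55.8 FPKM with the Kdm5a+b morpholinos. Alpha-amanitin replicate 1 fell inside the wild-type range and replicate 2 above it. The log2 difference with alpha-amanitin was 0.36 (SE 0.256, limma adjusted p = 0.314), with a 95% interval of -0.20 to 0.93.

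Dcp1b (ENSMUSG00000041477, chr6:119175253-119221616) encodes the second Dcp1 protein and was close to absent except with alpha-amanitin. Wild-type libraries had 0.00496, 0.0114 and 0.422 FPKM, mismatch controls 0.596 and 0.280 FPKM, and Kdm5a+b libraries 0.391 and 0.388 FPKM. The alpha-amanitin libraries had 4.25 and 6.72 FPKM, both above all 7 others. For each of the 3 wild-type values the deposited lower bound was 0, and the highest upper bound was 1.02 FPKM, under the lower bounds of 3.41 and 5.31 FPKM with alpha-amanitin. Dcp1b rose by 2.49 on the log2(FPKM + 1) scale (SE 0.430, limma adjusted p = 0.00152), a difference above that of 99.7% of all genes tested. Because Dcp1b passed the filter through its 2 alpha-amanitin libraries alone, this p and this rank are no separate support for the rise. A fold is not given, because the wild-type level is not distinguishable from 0 by its bounds. Without either alpha-amanitin replicate, and with a filter of 5 FPKM, Dcp1b was not tested at all.

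As a share of both Dcp1 messages, Dcp1b was 0.00971%, 0.0255% and 0.958% in wild type, and 7.98% and 8.42% with alpha-amanitin. Shares in mismatch controls were 1.48% and 0.731%, and in Kdm5a+b embryos 0.637% and 0.692%. Dcp1a thus remained the main Dcp1 message in all 9 libraries, at 91.6% or more of the pair. The log2 ratio of Dcp1a over Dcp1b, with 1 FPKM added to both, was 5.39 ± 0.374 in wild type (SD, n = 3) and 3.26 ± 0.00675 with alpha-amanitin (SD, n = 2). The groups did not overlap (exact permutation p = 0.2, the smallest possible). The ratio holds the same Dcp1b values as the test above, so its separation is no separate support for the rise. Without that addition the FPKM ratios were 10300, 3914 and 103 in wild type, and 11.5 and 10.9 with alpha-amanitin. With Dcp1b near 0 in wild type, the size and spread of the log2 ratio there depend on the added 1 FPKM. Part of Dcp1b lies opposite Cacna1c on the other strand, and no source used here states whether the counting used strand. Cacna1c stood at 0.000219 FPKM in alpha-amanitin replicate 1 and 0.663 FPKM in replicate 2, and at 0.167 FPKM or less in the other libraries.

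Dcp2 (ENSMUSG00000024472), the decapping enzyme, is known to build up as protein while the oocyte matures. Its message stood at 18.9, 20.2 and 25.5 FPKM in wild-type embryos, 25.5 and 27.2 FPKM after alpha-amanitin, 14.1 and 20.2 FPKM in mismatch controls, and 13.4 and 17.0 FPKM with the Kdm5a+b morpholinos. The alpha-amanitin and wild-type libraries met at the top of the wild-type range, where wild-type replicate 3 was just above alpha-amanitin replicate 1. The log2 difference was 0.29 (SE 0.311, limma adjusted p = 0.512, 95% interval -0.40 to 0.98).

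Edc4 (ENSMUSG00000036270, chr8:105880881-105894908), the scaffold between Dcp1 and Dcp2, was scattered between libraries of the same group. It was 18.1, 3.43 and 4.72 FPKM in wild-type embryos, 44.9 and 7.87 FPKM after alpha-amanitin, 5.92 and 8.16 FPKM in mismatch controls, and 3.05 and 4.54 FPKM with the Kdm5a+b morpholinos. Replicate 1 stood apart in both uninjected groups, and the wild-type and alpha-amanitin ranges overlapped. The value of alpha-amanitin replicate 1 also lay above its own deposited bounds of 33.4 to 42.3 FPKM. The log2 difference of 1.36 (SE 0.746, limma adjusted p = 0.199) rested on that library: without alpha-amanitin replicate 1 it was 0.17, and without replicate 2 it was 2.55 (adjusted p = 0.0379). Edc4 shares 1342 bases with Nrn1l on the same strand, and Nrn1l stood at 19.7, 5.65 and 11.5 FPKM in wild-type embryos, against 14.1 and 6.08 FPKM after alpha-amanitin, again higher in replicate 1 of each; its part in the Edc4 values was not tested.

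Xrn1 (ENSMUSG00000032410, chr9:95954760-96057803), the exonuclease that follows decapping, stood at 3.91, 9.18 and 8.12 FPKM in wild-type embryos, 1.78 and 2.66 FPKM after alpha-amanitin, 10.3 and 6.51 FPKM in mismatch controls, and 5.70 and 5.60 FPKM with the Kdm5a+b morpholinos. The 2 alpha-amanitin libraries were the lowest of the 9, next to wild-type replicate 1. The log2 difference was -1.27 (SE 0.456) and narrowly missed the threshold (limma adjusted p = 0.0587, 95% interval -2.28 to -0.26). Xrn1 passed the test without wild-type replicate 1 (difference -1.60, adjusted p = 0.0248), with a pseudocount of 0.1 FPKM (0.0491), with a filter of 5 FPKM (0.0423) and without the trend on the mean level (0.0499). Under quantile normalization the difference shrank to -0.23 (adjusted p = 0.725).

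Ythdf2 (ENSMUSG00000040025, chr4:132184912-132212303) is the m6A reader with the clearest role in decay, and eggs made without it do not support embryo development. Its wild-type levels were 12.6, 28.2 and 10.2 FPKM, its alpha-amanitin levels 4.63 and 4.24 FPKM, its mismatch control levels 10.2 and 10.01 FPKM, and its Kdm5a+b levels 9.64 and 6.25 FPKM. All 7 libraries without the inhibitor were higher than the 2 with it, and wild-type replicate 2 stood far above the rest. Ythdf2 fell by 1.60 on the log2 scale with alpha-amanitin (SE 0.452, limma adjusted p = 0.0223). Leaving out wild-type replicate 2 ended the call (-1.18, limma adjusted p = 0.0520), as did leaving out alpha-amanitin replicate 1 (0.0710) or replicate 2 (0.0912), and so did quantile normalization (-0.70, adjusted p = 0.274).

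Ythdf3 (ENSMUSG00000047213, chr3:16183183-16217035), a close paralogue that reads the same mark, showed the opposite sign. It held 32.2, 31.8 and 31.8 FPKM in wild-type embryos, 49.8 and 40.4 FPKM after alpha-amanitin, 21.4 and 29.8 FPKM in mismatch controls, and 19.0 and 29.8 FPKM with the Kdm5a+b morpholinos. The wild-type libraries lay close together, below both alpha-amanitin libraries and above all 4 injected ones. The log2 difference with alpha-amanitin was 0.48 (SE 0.298), which did not pass the test (limma adjusted p = 0.257, 95% interval -0.18 to 1.14).

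Ythdf1, the third member of the family, stood at 24.3, 28.5 and 13.1 FPKM in wild-type embryos, against 3.83 and 9.79 FPKM after alpha-amanitin, and fell by 1.60 on the log2 scale (SE 0.439, limma adjusted p = 0.0192). Ythdf3 therefore made up 35.9% to 57.7% of the 3 messages in wild type, and 85.5% and 74.2% with alpha-amanitin. In the 4 injected libraries its share was 38.9% to 56.8%. The sum of the 3 was 70.9 ± 16.7 FPKM (SD, n = 3) in wild type, against 56.4 ± 2.72 FPKM (SD, n = 2) with alpha-amanitin, so the ranges overlapped while the make-up differed. The log2 ratio of Ythdf2 over Ythdf3 was -1.002 ± 0.737 in wild type and -3.08 ± 0.137 with alpha-amanitin, a difference of -2.07 with no overlap (exact permutation p = 0.2, the smallest possible).

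**Figure D3:**
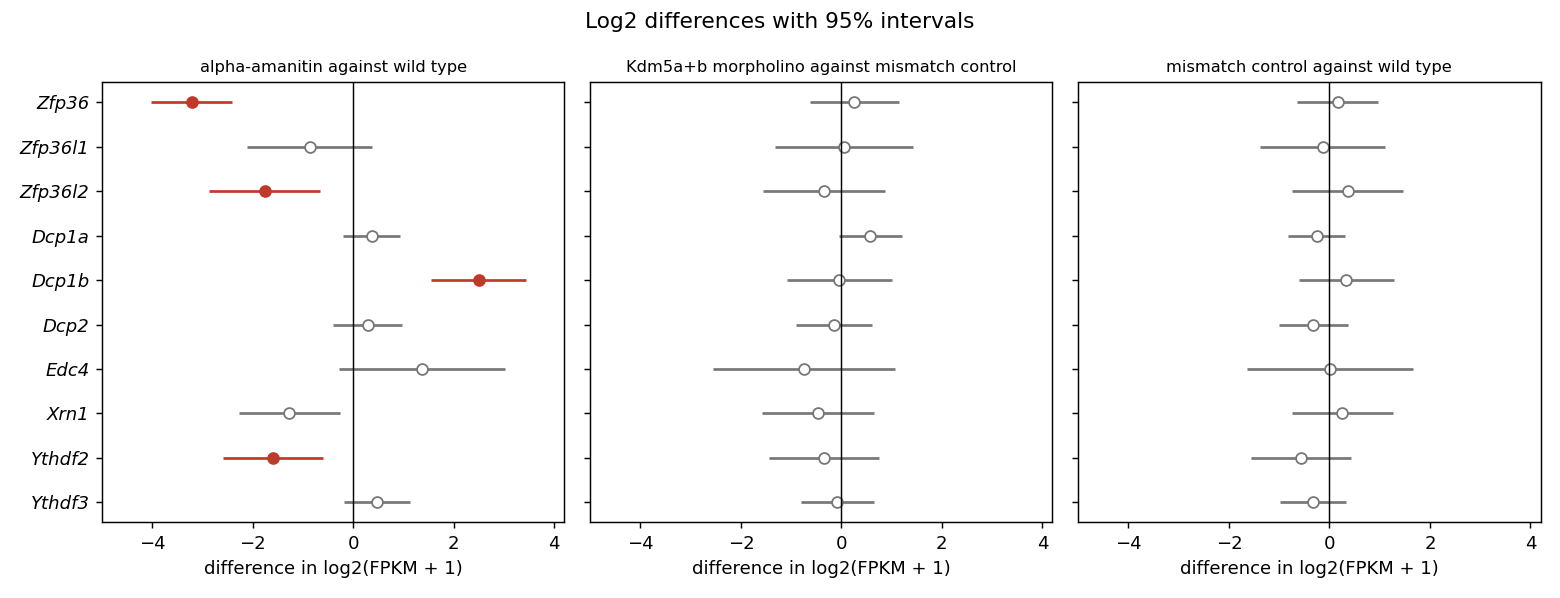
Difference in log2(FPKM + 1) of each gene (horizontal axis) in 3 comparisons, with 95% intervals from limma; filled red points passed an adjusted p of 0.05. In alpha-amanitin against wild type 3 genes lie to the left and 1 to the right, and in the other 2 comparisons no gene passed.

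The Kdm5a+b morpholinos addressed whether loss of these demethylases changes transcription in the 2-cell embryo, and against mismatch controls none of the 10 genes was called higher (background 0%) or lower (background 0%). No gene of the whole table passed limma at an adjusted p of 0.05 in this comparison, where the smallest adjusted p was 0.280 and 414 genes had an unadjusted p under 0.05. Dcp1a had the smallest unadjusted p of the 10: its Kdm5a+b libraries (61.0 and 55.8 FPKM) lay above the mismatch controls (39.6 and 38.1 FPKM) and above wild type (43.6 to 51.1 FPKM). The log2 difference was 0.58 (SE 0.281, limma adjusted p = 1, 95% interval -0.04 to 1.20). Zfp36 was the other gene whose Kdm5a+b libraries both lay above the controls, by 0.26 (95% interval -0.62 to 1.14), and 16.5% of all genes tested showed such a separation upward. Edc4, Xrn1 and Ythdf2 lay below without overlap, against a background of 16.8%. Their log2 differences were -0.75 (95% interval -2.56 to 1.06), -0.47 (-1.57 to 0.64) and -0.34 (-1.43 to 0.76). For Zfp36l1, Zfp36l2, Dcp1b, Dcp2 and Ythdf3 the groups overlapped, with differences between -0.35 and 0.05. These intervals are wide beside the differences, and 2 libraries against 2 cannot give an exact permutation p below 0.333.

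Injection with mismatch morpholinos was set against wild type as the background of handling. None of the 10 genes was called higher (background 0%) or lower (background 0%), no gene of the table passed limma, and 616 had an unadjusted p under 0.05. This comparison shares its wild-type libraries with that of alpha-amanitin and its mismatch libraries with that of the Kdm5a+b morpholinos. The 2 genes whose groups did not overlap were Dcp1a, at -0.25 (95% interval -0.82 to 0.32), and Ythdf3, at -0.33 (-0.99 to 0.33), both lower after injection, against 8.85% of all genes tested. No member lay wholly above wild type, against 9.26% of all genes. The largest difference in size was that of Ythdf2, at -0.57 (-1.57 to 0.43), which rests on the high value of wild-type replicate 2: without it the difference was -0.15. The median over the 10 genes was -0.06, that of all genes tested -0.01.

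Genes of the same pathways were taken from a list of named genes for each step, drawn up with earlier results of these data known. Of 14 other tested genes whose products bind AU-rich or other 3′ elements, 5 fell with alpha-amanitin and none rose, beside 25.1% lower and 4.31% higher of all genes tested, with a median of -0.66 against -0.56 for all genes. Rc3h2, a Roquin protein that binds stem-loops in inflammatory messages, went from 14.2 ± 2.56 to 1.03 ± 1.37 FPKM (SD, n = 3 and 2, as for the means below). Zc3h12a, the endonuclease Regnase-1 that cleaves such messages, went from 5.56 ± 3.41 FPKM to 0.00671 FPKM in alpha-amanitin replicate 1 and was listed at 0 in replicate 2. Tial1, a translational repressor of AU-rich messages, went from 12.6 ± 4.34 to 1.87 ± 1.41 FPKM, and Hnrnpab, a nuclear ribonucleoprotein, from 132 ± 52.5 to 29.1 ± 14.0 FPKM. The abundant Elavl2, a stabilizing reader of AU-rich elements, averaged 59.3 and 66.1 FPKM in the same order and was not called (log2 difference 0.25, limma adjusted p = 0.750).

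Of 22 other tested decapping and 5′ to 3′ decay genes, 2 rose (4.31% of all genes tested did) and 8 fell (25.1% of all genes), with a median of -0.81. Dxo, an enzyme that removes incomplete caps, fell most, from 18.9, 32.2 and 20.5 FPKM in wild type to a value listed at 0 and 1.45 FPKM with alpha-amanitin (log2 difference -3.95, SE 0.448, limma adjusted p = 9.47e-05). Ddx6, the helicase that links deadenylation to decapping, went from 9.79 ± 1.18 to 1.68 ± 0.688 FPKM. The nuclear exonuclease Xrn2 went from 11.7 ± 10.1 to 1.61 ± 1.32 FPKM, with a wide wild-type spread. Pnrc2, an adaptor of Dcp1, had 0.708, 15.6 and 6.38 FPKM in wild type, was listed at 0 in alpha-amanitin replicate 1 and had 0.0477 FPKM in replicate 2 (limma adjusted p = 0.0411). The 2 genes that rose were Pnrc1, at 80.7 ± 15.9 and 163 ± 33.1 FPKM, and Gigyf2, at 36.7 ± 4.92 and 66.9 ± 14.2 FPKM, named here after their values were seen.

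Of 20 other tested m6A genes, 10 fell with alpha-amanitin, beside 25.1% of all genes tested, and none rose, beside 4.31%; the median was -1.15. The lowest were genes of the methyltransferase complex and of the wider m6A system. Cbll1, which encodes the writer subunit Hakai, went from 55.1, 41.0 and 70.2 FPKM to 2.78 and 3.83 FPKM (log2 difference -3.69, SE 0.308, limma adjusted p = 1.445e-05), with no overlap between the groups. Rbm15, an adaptor that brings the writer to RNA, went from 10.3 ± 1.64 to 0.792 ± 0.807 FPKM. Igf2bp1, a reader that stabilizes its targets, went from 5.38 ± 0.451 to 0.142 ± 0.0559 FPKM, and the separate methyltransferase gene Mettl16 from 4.67 ± 3.47 to 0.0344 ± 0.0446 FPKM. Mettl3, the catalytic writer, was at 14.9 ± 4.96 and 5.82 ± 0.863 FPKM and was not called (limma adjusted p = 0.0661).

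Deadenylase genes, the step before decapping, had a median above 0 (0.32): 4 of 16 tested rose, beside 4.31% of all genes, and 2 fell, beside 25.1%. Cnot6l, a catalytic subunit of CCR4-NOT, and Cnot4, a ubiquitin ligase associated with that complex, rose by 1.46 and 1.33 on the log2 scale. Tob1, an antiproliferative adaptor of the complex, had the largest fall of any list gene, from 75.0, 98.3 and 89.1 FPKM to 0.589 and 6.17 FPKM (log2 difference -4.70, SE 0.499, limma adjusted p = 6.22e-05). The scaffold Cnot1 fell by 0.94, from 34.4 ± 4.19 to 17.3 ± 0.0624 FPKM. Zfp36 is itself an immediate early gene in many cells, and of 14 other tested genes of that class 4 fell, beside 25.1% of all genes, and 1 rose, beside 4.31%, with a median of -1.08. Ier3 fell, from 12.2, 7.15 and 13.8 FPKM in wild type to values listed at 0 in both alpha-amanitin libraries. Ier5 went from 8.60 ± 3.21 to 0.0100 ± 0.0142 FPKM, and Btg2 from 5.55 ± 2.38 to 0.630 ± 0.341 FPKM. Egr2 rose, from 0.0927 and 0.248 FPKM, with wild-type replicate 2 listed at 0, to 1.83 and 16.5 FPKM, mainly in replicate 2; like Dcp1b it was tested through its alpha-amanitin libraries alone, so a difference was built into being tested. No gene of these 5 lists was called in the other 2 comparisons. With the Kdm5a+b morpholinos all 14 tested immediate early genes had differences above 0, with a median of 0.38. None of them passed the test. Of all 13137 genes tested, 6600 lay above 0 there, with a median of 0.003. Fos and Egr2 were each listed at 0 in a mismatch library, and whether the 14 genes vary independently was not tested.

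**Figure D4:**
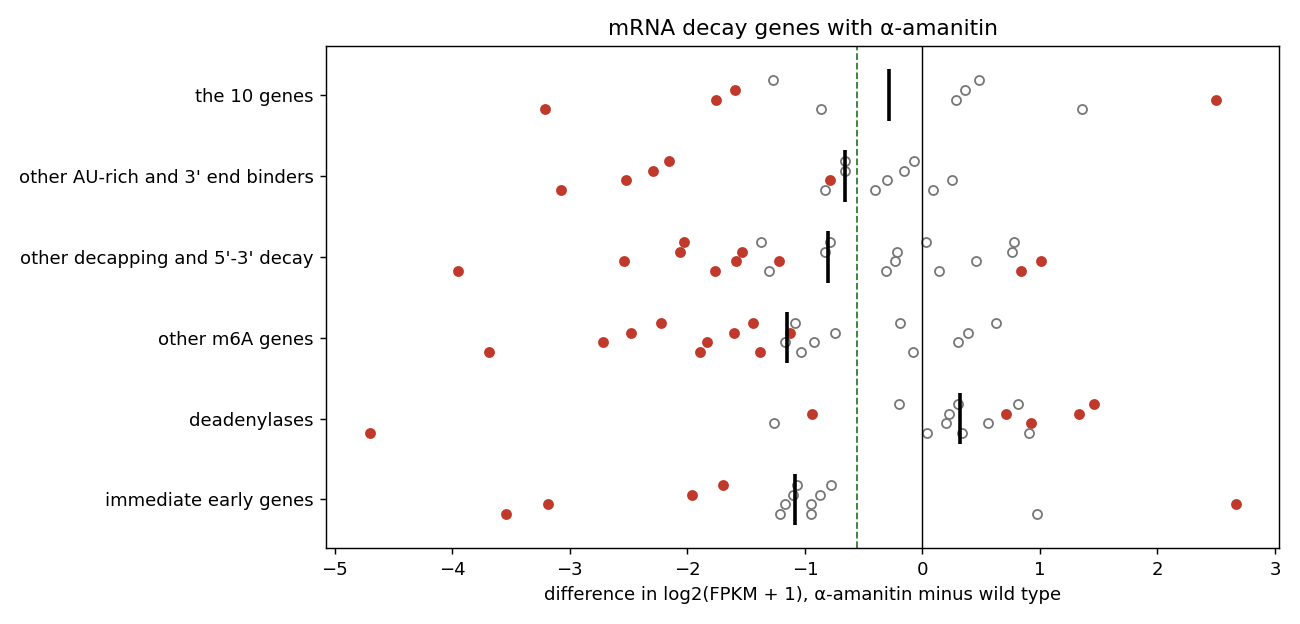
Difference in log2(FPKM + 1) between alpha-amanitin and wild type (horizontal axis) for the 10 genes and 5 lists of related genes. Each point is a gene, filled red where limma's adjusted p was under 0.05; black bars are medians and the dashed green line is the median of all genes tested (-0.56). The deadenylase median (0.32) lies to the right of that line and the m6A median (-1.15) to its left.

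The genes whose levels followed these patterns most closely over the 9 libraries were sought among 4189 genes with a mean of 10 FPKM or more, by Pearson's r of log2(FPKM + 1), for the 3 genes with the largest differences. The 9 points fall into the 4 groups and are not independent, so r is a description. Nearest to Zfp36 were Cstf1 (r = 0.994), Mesdc2 (0.994) and Cd3eap (0.993). Cstf1 averaged 15.2 FPKM in the wild-type group and 0.292 FPKM after alpha-amanitin, close to the levels of Zfp36 itself. Nearest to Dcp1b were Zbed3 (r = 0.977), Marf1 (0.971), which encodes a regulator of oocyte meiosis, and Pla2g4c (0.969). Zbed3 averaged 3135 FPKM in the wild-type group and 8730 FPKM after alpha-amanitin, and Pla2g4c 75.4 and 344 FPKM. Zfp36l2 was most like Acot13 (r = 0.962), Hsp90b1 (0.960) and Morc2a (0.951).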

How the data were processed

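Each library has its own Cufflinks-style table, in which the authors give, per the file headers, the FPKM of every gene with a lower and an upper bound and a status; all 10 genes had status OK in all 9 libraries. Per the submitters' processing notes, the build was mm10 and the series used Trimmomatic, BWA, SAMtools, Picard, Cufflinks, and Bismark (12.5); their roles, the annotation and the use of strand are not stated there. RNA was extracted with an RNeasy Micro kit and libraries followed TruSeq, per the labels' protocols. FPKM is relative to a library's own total.

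Values were tested as log2(FPKM + 1) with limma 3.58.1 (R 4.3.3), for genes that reached 1 FPKM in 2 or more of the 9 libraries. The model had group as its only term (5 residual degrees of freedom), eBayes with trend, and two-sided tests adjusted by Benjamini-Hochberg; it was checked on simulated data. Log2 differences understate changes of low genes. Paralogue ratios were compared with exact permutation tests (SciPy 1.17.1, two-sided). Untranslated regions came from GENCODE M21, 1 transcript a gene. The labels do not say that replicates were separate collections, so p-values measure only the spread between these libraries.

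The members and the gene lists were chosen with earlier results of these data known. All members are named; from each list at most the 4 called genes with the largest absolute difference with alpha-amanitin are named, apart from Pnrc1, Gigyf2, Elavl2, Mettl3 and Ythdf1, chosen after their values were seen. Kdm5a, Kdm5b and cell type markers served as checks. Alternatives were other pseudocounts, filters and scalings, a replicate block, no trend, 2 groups alone and leaving out each library. Chromatin and methylation samples were not used here.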

Additional observations from a re-analysis of the deposited data

How the results depend on the processing

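Zfp36 was called lower with alpha-amanitin under all 17 alternatives (differences from -4.29 to -2.30). Dcp1b was tested in 14 of them; since it passes the filter of 1 FPKM through its alpha-amanitin libraries alone, its calls there are no measure of stability. With no filter on low values its difference was 2.49 (limma adjusted p = 0.00614). The count of called lower genes, 3 of 10, was 1 with no filter on low values and 1 under quantile normalization. It was 2 with the 2 groups fitted alone, and 1 to 3 when a wild-type library was left out. It was 4 with a pseudocount of 0.1, with a filter of 5 FPKM and without the trend. The count of called higher genes, 1, was 0 with a filter of 5 FPKM. Dcp1b was not tested with that filter or without either alpha-amanitin replicate, and Edc4 had a difference of 2.55 without replicate 2. With no filter, more genes were tested, and Zfp36l2 and Ythdf2 had adjusted p = 0.0641 and 0.0642; Zfp36l2 had 0.0514 with the 2 groups fitted alone. The log2 ratio of Zfp36l1 over Zfp36l2 went from 0.89 to -0.36 with a pseudocount of 0.1, and the cause was not tested. Over the whole table, 566 genes were higher and 3299 lower with alpha-amanitin, a split that became 1643 and 2034 under quantile normalization; the higher count was 371 with the replicate block and 288 and 355 without alpha-amanitin replicate 2 and 1.

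With no filter, 17 genes were higher and 10 lower with the Kdm5a+b morpholinos, and 11 were higher in mismatch controls against wild type, none of them a member; leaving out a library gave 0 to 3. Uncalled members of low or scattered level changed sign. In mismatch controls against wild type, Zfp36l1 was at 0.19 with a pseudocount of 0.1 and 0.015 as TPM, and with the replicate block Zfp36l2 was at -0.073 and Edc4 at -0.21. Leaving out a library there gave -0.57 to 0.35 for Zfp36l1, -0.073 to 0.65 for Zfp36l2, -0.40 to 0.66 for Edc4, -0.067 to 0.55 for Xrn1 and -0.0053 to 0.34 for Zfp36. In the Kdm5a+b comparison it gave -0.33 to 0.44 for Zfp36l1, -0.73 to 0.033 for Zfp36l2, -0.20 to 0.12 for Dcp1b, -0.40 to 0.091 for Dcp2 and -0.40 to 0.23 for Ythdf3. Over the whole table, libraries with the same replicate number showed no common shift (correlations of replicate 1 deviations from -0.04 to 0.04). That cannot show whether libraries were collected or prepared in matched sets. The replicate block left the counts of members called with alpha-amanitin at 3 lower and 1 higher. Depth in reads is unknown, and the lowest levels, those of Zfp36l1 and of Dcp1b without alpha-amanitin, are the least certain.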

Other observations

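The nonamer TTATTTATT was also looked up in the 3′ untranslated regions of 11212 genes that were tested and had one. The 10424 genes with no match had a median log2 difference of -0.54 with alpha-amanitin, the 649 with 1 match -0.44, and the 139 with 2 or more -0.48. The shares called lower were 25.3%, 23.0% and 25.9%. Genes with a match had longer untranslated regions, with a median of 2000 bases for 1 match against 880 bases for none. Split by length, the medians for no match and for 1 match were -0.75 (3520 genes) and -0.46 (48) up to 500 bases, and -0.54 (2166) and -0.64 (103) from there up to 1000 bases. Within untranslated regions of over 1000 and up to 2000 bases the medians were -0.38 for 2462 genes without a match and -0.58 for 174 genes with 1, and over 2000 and up to 4000 bases -0.32 for 1733 and -0.35 for 198. Beyond 4000 bases they were -0.22 for 543 and -0.28 for 126. With 2 or more matches the medians from the shortest to the longest band were -2.03 (4 genes), -0.35 (11), -0.10 (34), -0.57 (46) and -0.38 (44).

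In wild-type embryos the 10 genes spanned a wide range of levels. Dcp1a, Ythdf3 and Dcp2 averaged 46.4, 31.9 and 21.6 FPKM, while Zfp36l1 and Dcp1b averaged 1.09 and 0.146 FPKM. With alpha-amanitin the same 3 genes averaged 61.1, 45.1 and 26.3 FPKM, and Edc4, with 26.4 FPKM, had an SD of 26.2 FPKM over its 2 libraries.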
